A study of Mus musculus with 34 samples.

Results

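Tnni1, Tpm3, Mb and Tnnt2 are slow-fibre and developmental muscle genes with probes on both kinds of array of the study. Members were all probes whose single annotated gene symbol was one of these names: 8 probes per array, of 1200, and 4 genes, of 632 genes measured on both kinds of array. Mb and Tpm3 had 3 probes each, and Tnni1 and Tnnt2 had 1 each, so that values of the troponins rest on a single spot. All 8 probes passed the filter on missing values on both kinds of array.

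Total RNA of mouse diaphragm and hindlimb muscle was hybridised to 34 2-colour arrays. The strains were BL10, whose muscle has dystrophin, and mdx, whose muscle lacks it, and the mice were either untreated or treated with L-arginine, the substrate of nitric oxide synthases. The arrays fell into 8 groups of 1 tissue, 1 strain and 1 treatment. Each group had 1 array at 3, 5, 9 and 12 weeks of age, and the untreated mdx groups had a Sample 1 and a Sample 2 at 12 weeks, which made 5 arrays there and 4 elsewhere. The 18 untreated arrays form one value table and the 16 arrays of treated mice another, of a different platform, so that an effect of treatment and one of the table cannot be told apart. Below, "L-arginine" names that table and those mice together. The labels give neither pooling nor the number of animals, nor say that arrays of a group came from separate animals. So p-values here speak for the spread of the arrays alone, and that spread may be technical.

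Each value is the ratio of the RNA of the named age to an RNA of the same strain at 12 weeks, per the channel labels. It is not an expression level, so levels of different genes were not compared, and a strain difference compares values that were each taken against another reference. The direction of the ratio was read as named sample over reference, which is likely from the labels but not settled. If the ratio runs the other way, every sign below turns. Pearson's r between untreated arrays over all probes went down to -0.41 for arrays of different strains, which have different references, and to -0.19 for arrays of 1 strain. Among L-arginine arrays the lowest r was -0.098. Between arrays of 1 group the median r was 0.066 untreated and 0.43 with L-arginine. The tissue of the reference is not given, nor whether the reference of treated arrays came from treated mice. For 1 array, BL10 hindlimb with L-arginine at 9 weeks, both channels are labelled as mdx. Its title decided its group here, and the differences of hindlimb that it enters directly are also given without it.

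Striated muscle contracts when calcium binds the troponin complex, which moves tropomyosin along the thin filament and frees actin for myosin. Troponin I holds the filament in its blocked state, troponin T ties the complex to tropomyosin, and each exists as slow, fast and cardiac forms from separate genes. Tnni1 encodes the slow skeletal troponin I, which is also the form of embryonic muscle. Tnnt2 encodes cardiac troponin T, which skeletal muscle makes while it develops and again in regenerating fibres. Tpm3 encodes the slow-fibre tropomyosin and, from other promoters and exons of the gene, cytoskeletal forms found in most cells. Mb encodes myoglobin, the oxygen-binding protein of slow and other oxidative fibres. In mdx muscle, fibres degenerate and are replaced by regenerating ones, and the diaphragm is the muscle that declines most with age. In RNA of whole muscle, fewer cells of a type and less RNA per cell cannot be told apart.

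The troponin members are neighbours in the genome. In the RefSeq annotation of GRCm38.p6, Tnni1 lies on chromosome 1 from 135783033 to 135810989 and Tnnt2 from 135836315 to 135852268, 25.3 kb further on, with 1 gene, Lad1, between them. Tpm3 lies on chromosome 3 from 90072651 to 90100902, and Mb on chromosome 15 from 77015487 to 77050668. A promoter window of 300 bases, 250 before and 50 after a start site, is shown for each of the neighbouring troponin genes so that their regulatory letters can be set side by side. The windows are RefSeq sequences on the plus strand, chr1:135799171-135799470 for Tnni1 and chr1:135836084-135836383 for Tnnt2. Of the windows each gene has in that table, the one with the most motif matches was taken. Capitals mark matches, on either strand, to the E-box CANNTG, the motif of myogenic basic helix-loop-helix factors, and to the M-CAT motif CATTCCT of TEAD factors.

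Tnni1: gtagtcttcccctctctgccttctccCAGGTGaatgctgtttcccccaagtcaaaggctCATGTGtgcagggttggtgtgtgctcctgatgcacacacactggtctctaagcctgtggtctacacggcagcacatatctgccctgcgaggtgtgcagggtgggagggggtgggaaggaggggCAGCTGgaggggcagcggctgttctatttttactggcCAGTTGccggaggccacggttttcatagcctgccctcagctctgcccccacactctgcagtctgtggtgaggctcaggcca
Tnnt2: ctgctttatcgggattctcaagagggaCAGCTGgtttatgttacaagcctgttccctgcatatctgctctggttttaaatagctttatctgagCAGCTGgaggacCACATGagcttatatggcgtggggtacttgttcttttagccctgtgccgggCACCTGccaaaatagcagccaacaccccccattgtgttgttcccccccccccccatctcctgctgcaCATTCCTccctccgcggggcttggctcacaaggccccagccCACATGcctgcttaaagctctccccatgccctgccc

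The Tnni1 window held 4 E-boxes and no M-CAT motif, and the Tnnt2 window held 5 E-boxes and 1 M-CAT motif. Neither held an exact match to the patterns searched for MEF2, YTAWWWWTAR, and for CArG, CCWWWWWWGG. In these Y is C or T, W is A or T, and R is A or G. Looser forms of these motifs were not searched. An E-box stood in 72.3% and an M-CAT motif in 5.36% of 32851 such promoter windows of the mouse, so the E-boxes are common letters. Those shares are of windows not chosen by their matches. The other window of each of these genes held 2 E-boxes and no M-CAT motif. The Tnni1 window shown lies inside the span of the gene given above. The arrays did not measure these windows, and a match is a description of the letters, not of a site in use.

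Tnni1 had its highest mean ratios of the 8 groups in mdx muscle of the L-arginine table. In mdx diaphragm of that table the ratios at 3, 5, 9 and 12 weeks were 1.92, 3.15, 2.31 and 1.93, and in mdx hindlimb they were 3.58, 1.48, 2.36 and 1.72. All 8 arrays lay above 1. In BL10 diaphragm of the L-arginine table the ratios at these ages were 1.67, 1.27, 1.27 and 1.66, and in BL10 hindlimb they were 0.74, 1.83, 1.35 and 0.98. BL10 diaphragm lay above 1 on every array and below each array of mdx diaphragm, and BL10 hindlimb was spread around 1.

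In untreated mice Tnni1 stayed closer to its reference. In untreated BL10 diaphragm the ratios were 1.80 at 3 weeks, 1.09 at 5, 0.95 at 9 and 0.87 at 12 weeks, and in untreated mdx diaphragm 1.43, 1.09 and 1.03 at the first 3 ages. In untreated BL10 hindlimb they ran from 0.97 to 1.22 and in untreated mdx hindlimb from 0.74 to 1.29. The diaphragms of both strains had their highest ratio of the ages 3, 5 and 9 weeks at 3 weeks. The BL10 diaphragm array at 3 weeks had 168 of 1200 probes at or below 0 and a median ratio of 0.85. The arrays of mdx diaphragm at 12 weeks disagreed, with 2.14 on Sample 1 and 0.85 on Sample 2, a gap of 1.33 on the log2 scale.

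**Figure D1:**
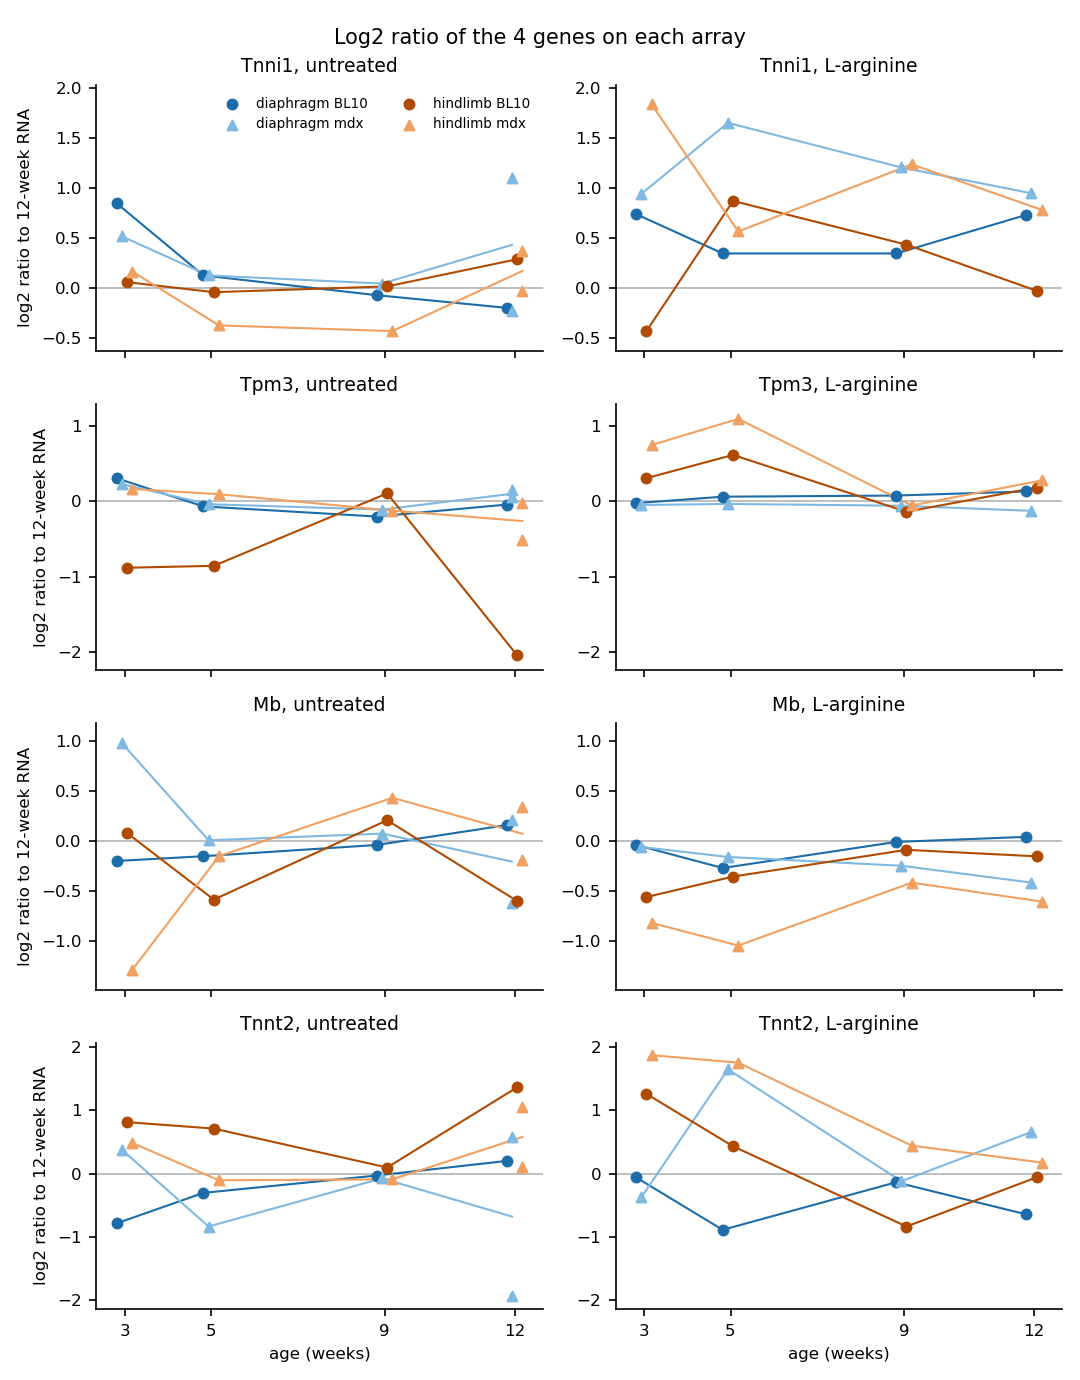
Log2 ratio to the strain's 12-week RNA (vertical axis) against age in weeks (horizontal axis) for the 4 genes, untreated arrays on the left and L-arginine arrays on the right. Each point is 1 array, shifted slightly along the age axis, and lines join the means by age. Tnni1 of mdx mice lies above 0 on all 8 L-arginine arrays, and Tpm3 of untreated BL10 hindlimb reaches -2.04 at 12 weeks.

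The difference between the tables was significant for Tnni1 in mdx hindlimb. The mean log2 ratio was 1.11 ± 0.56 (SD, n = 4) with L-arginine and -0.062 ± 0.34 (SD, n = 5) untreated. The groups did not overlap, and the L-arginine mean was higher at 4 of 4 ages. The difference was 1.17 ± 0.29 (SE) on the log2 scale, 2.25-fold (limma, Benjamini-Hochberg adjusted p = 0.0281). In this comparison 19 of 632 genes, 3.01%, were called, and the groups of 10.1% of genes did not overlap. The median difference of all genes was 0.22, and the call was lost when each array was centred on its median (1.06, adjusted p = 0.0705). The exact permutation test on the arrays of these groups gave p = 0.00794, the smallest that 5 against 4 arrays allow, among 32 such tests of the 4 genes, unadjusted.

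The call was also lost without any of 5 of the arrays of these groups, with differences from 0.95 to 1.18. They were the untreated arrays at 5 weeks, at 9 weeks and of Sample 2, and the L-arginine arrays at 3 and 9 weeks. Without the treated BL10 hindlimb array of conflicting labels, which enters only through the shared estimate of age and spread, the difference was 1.17 (limma, adjusted p = 0.0292).

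In the other groups the table difference of Tnni1 did not pass the test. In mdx diaphragm it was 0.88 ± 0.29 (SE; limma, adjusted p = 0.226), higher at 4 of 4 ages, where 0.633% of genes were called. It passed without Sample 1 of untreated mdx diaphragm, the high array at 12 weeks (1.08, limma, adjusted p = 0.0397), with arrays scaled (1.28, 0.027), with quantile normalisation (1.27, 0.0387) and with array weights (0.97, 0.0322). With arrays scaled and with quantile normalisation the call in mdx hindlimb was lost (adjusted p = 0.225 and 0.173), so the tissue in which Tnni1 was called depended on the scaling. In BL10 diaphragm it was 0.37 ± 0.31 (SE), where 0% of genes were called and 49 had an unadjusted p under 0.05, and in BL10 hindlimb 0.13 ± 0.31 (SE). Whether mdx differed from BL10 in this respect was tested directly. The table difference was 0.77 ± 0.30 (SE) larger in mdx over both tissues, which did not pass (limma, adjusted p = 0.509). In this comparison 0% of 632 genes were called, and 58 had an unadjusted p under 0.05. Between tissues it differed by 0.028 ± 0.30 (SE; adjusted p = 0.975), with a 95% confidence interval from -0.59 to 0.65.

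Between strains, Tnni1 had a higher mean in mdx than in BL10 in both tissues of the L-arginine table, without passing the test. In diaphragm mdx had a mean of 1.19 ± 0.34 (SD, n = 4), and the mean of BL10 was 0.54 ± 0.23 (SD, n = 4). These groups did not overlap, as was so for 5.69% of genes, and the difference was 0.65 ± 0.33 (SE; limma, adjusted p = 0.998). In this comparison 1 gene of 633, 0.158%, was called. In hindlimb the difference was 0.90 ± 0.33 (SE; adjusted p = 0.191), again with 0.158% called. There the groups overlapped and mdx was higher at 3 of 4 ages, with differences of 2.27 at 3 weeks and -0.31 at 5. In untreated mice the strain difference was 0.11 ± 0.27 (SE) in diaphragm, where limma called 0% of 637 genes and 62 had an unadjusted p under 0.05. In hindlimb it was -0.16 ± 0.27 (SE), where 0.157% were called.

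Tpm3 stood out in untreated BL10 hindlimb, where it had its lowest ratios. Averaged over its probes on the log scale, its ratios there were 0.543 at 3 weeks, 0.553 at 5, 1.08 at 9 and 0.243 at 12 weeks. In BL10 hindlimb of the L-arginine table they were 1.24, 1.53, 0.91 and 1.14. The groups overlapped because of the 9-week arrays, where the order was turned and the treated array is the one of conflicting labels. In diaphragm the averaged ratio of Tpm3 stayed close to 1 on every array, from 0.87 to 1.24 untreated and from 0.917 to 1.10 with L-arginine. Its single probes lay further from 1 and on both sides of it. In mdx diaphragm with L-arginine their mean log2 ratios were -0.45, -0.22 and 0.43.

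The table difference of Tpm3 in BL10 hindlimb was 1.16 ± 0.28 (SE) on the log2 scale, 2.24-fold (limma, adjusted p = 0.0159), the means being 0.24 ± 0.31 (SD, n = 4) and -0.92 ± 0.88 (SD, n = 4). Here 31 of 632 genes, 4.91%, were called, and the median difference of all genes was 0.24. The exact permutation test gave p = 0.0571, where 4 against 4 arrays allow 0.0286. The untreated arrays at 3 and 12 weeks had 225 and 128 probes of 1200 at or below 0 and median ratios of 0.73 and 0.78, against median ratios of 1 and 1.01 at 5 and 9 weeks. Without both the difference was 0.59 (limma, adjusted p = 0.545), without the 12-week array 0.81 (0.0716), and without the 3-week array 1.13 (0.0556). Without the treated array of conflicting labels it was 1.29 (0.0129).

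The low value of Tpm3 at 12 weeks came from 1 probe, those at 3 and 5 weeks did not. The probe listed under the RefSeq transcript had a ratio of -0.45 at 3 weeks, which has no logarithm and was left out, and 0.02 at 12 weeks. The probes listed under a cDNA entry read 0.41 and 0.72 at 3 weeks and 1.17 and 0.61 at 12 weeks. At 5 weeks all 3 probes were low, at 0.64, 0.55 and 0.48. From these 2 probes alone the table difference in BL10 hindlimb was 0.68 (adjusted p = 0.0676). The 3-week value of Tpm3 in this group is therefore a mean of 2 probes, and so is that of treated mdx diaphragm at 3 weeks, where another probe read -0.76.

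The 3 probes of Tpm3 followed each other less uniformly than those of Mb, described further on. Pearson's r between pairs of them over 17 or 18 untreated arrays was -0.0020, 0.22 and 0.40, and over 15 or 16 L-arginine arrays it was 0.62, 0.10 and -0.37, given as descriptions. On L-arginine arrays of mdx hindlimb, 2 probes read well above the reference at 3 and 5 weeks, with 2.02 and 2.65 on one and 2.67 and 3.51 on another. The third read 0.88 and 1.05 on the same arrays. The files do not say which tropomyosin forms a probe detects.

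**Figure D2:**
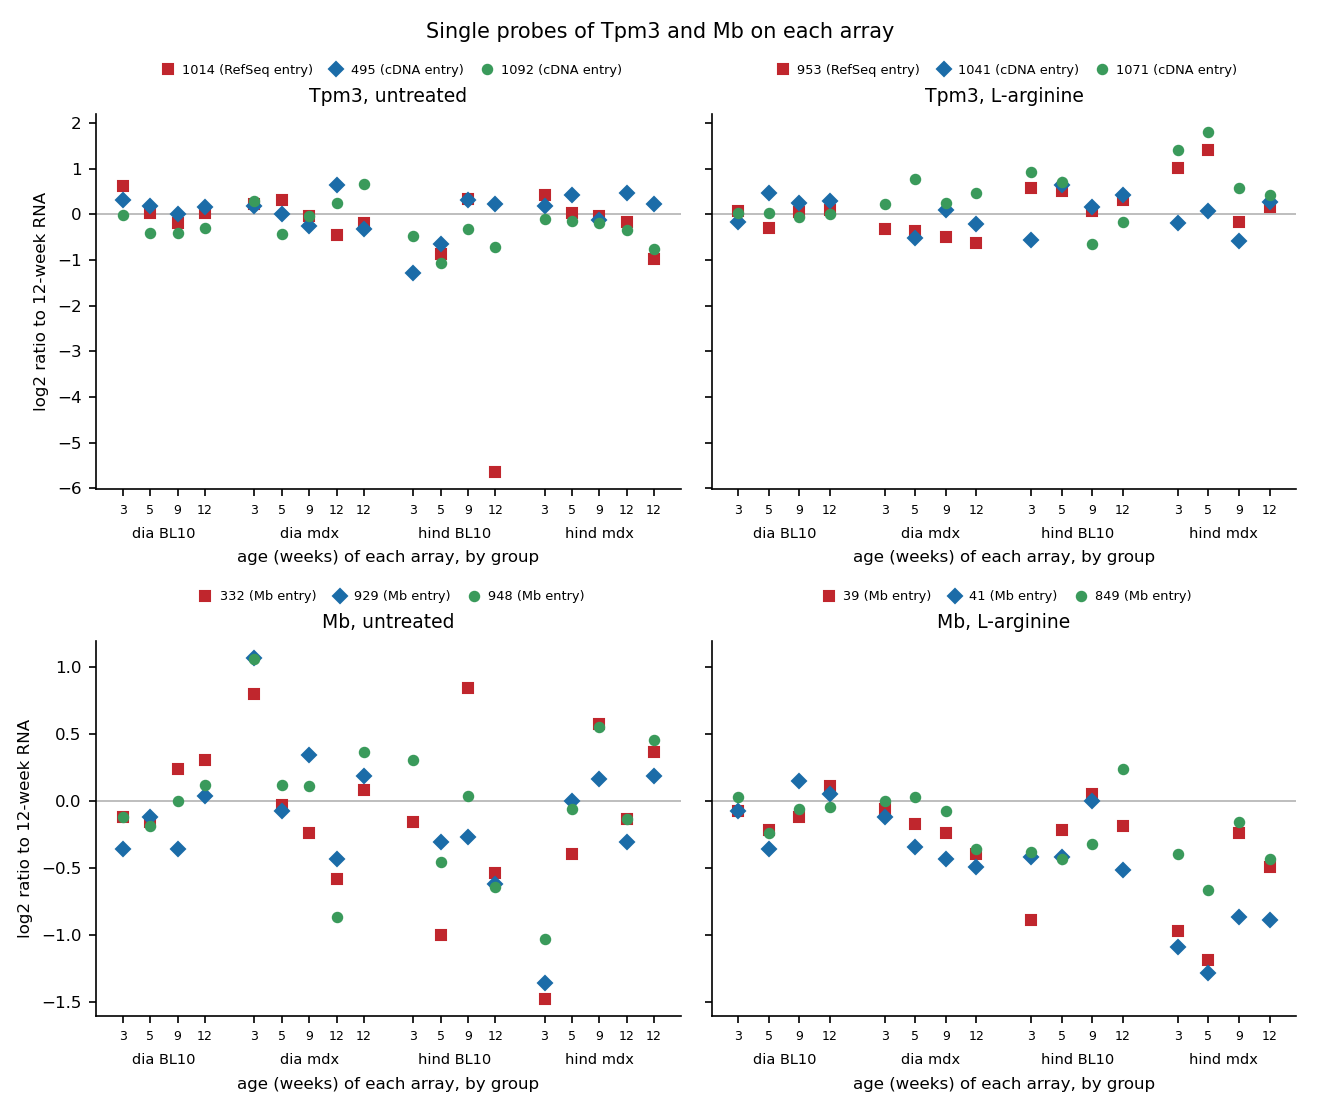
Log2 ratio (vertical axis) of single probes of Tpm3 (top) and Mb (bottom) on every array, ordered by group and, within it, by age in weeks (horizontal axis). Symbols are probes, named by number and by the kind of sequence entry the annotation lists, and ratios of 0 or below are left out. The lowest Tpm3 point is the RefSeq-entry probe at a ratio of 0.02 in untreated BL10 hindlimb at 12 weeks, while the Mb probes lie closer together.

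In mdx hindlimb the averaged ratios of Tpm3 were 1.68, 2.14, 0.964 and 1.21 at 3, 5, 9 and 12 weeks with L-arginine. Untreated they were 1.12, 1.07 and 0.919 at the first 3 ages, and Sample 1 read 0.99 and Sample 2 read 0.704. The table difference was 0.56 ± 0.26 (SE; limma, adjusted p = 0.241), and 0.86 (adjusted p = 0.0337) from the probes with a value on every array. Over both strains it was 0.91 ± 0.27 (SE) larger in hindlimb than in diaphragm (adjusted p = 0.0833), in a comparison that called 1.11% of genes. Without the untreated BL10 hindlimb array at 9 weeks, whose ratio of 1.08 was the highest of its group, this was 1.11 (adjusted p = 0.00515). Between untreated strains in hindlimb, Tpm3 was 0.90 ± 0.30 (SE) higher in mdx (adjusted p = 0.368), and 0.51 without the BL10 array at 12 weeks. Without the BL10 array at 9 weeks it was 1.28 (adjusted p = 0.0272). That 9-week array had 0 of 1200 probes at or below 0, against 225 at 3 weeks and 128 at 12 weeks in its group. The passes at 1.11 and 1.28 thus left out an array with no such probe and kept those with many, so they add no firm support. Between tissues, as a mean over both strains, Tpm3 differed by -0.53 ± 0.21 (SE, limma, adjusted p = 0.526) untreated, hindlimb minus diaphragm. With L-arginine this difference was 0.38 ± 0.14 (SE, limma, adjusted p = 0.116). The untreated mean log2 ratios were -0.92 in hindlimb and -0.00025 in diaphragm of BL10, and -0.076 and 0.058 in mdx. In diaphragm of the L-arginine table the averaged values of the strains did not overlap, as was so for 5.69% of genes, and mdx was below BL10 by a difference of -0.13 ± 0.20 (SE; adjusted p = 0.998). That value averages probes of opposite sign, with differences of -0.42, -0.56 and 0.42.

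Mb had ratios below 1 on 15 of 16 L-arginine arrays, lowest in mdx hindlimb. There they were 0.567, 0.484, 0.749 and 0.657 at 3, 5, 9 and 12 weeks, against 0.678, 0.782, 0.941 and 0.899 in BL10 hindlimb. In diaphragm they were 0.959, 0.895, 0.842 and 0.749 in mdx and 0.973, 0.829, 0.993 and 1.03 in BL10. At each age mdx hindlimb was the lowest of the 4 groups. Its mean log2 ratio was -0.72 ± 0.27 (SD, n = 4), and the next lowest was BL10 hindlimb at -0.29 ± 0.21 (SD, n = 4).

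None of the differences of Mb passed the test. The difference of hindlimb minus diaphragm was -0.36 ± 0.12 (SE) on the log2 scale in the L-arginine table (limma, adjusted p = 0.0941), where 10 of 633 genes, 1.58%, were called. The median of all genes there was 0.17 in the other direction, and with print-order trends removed Mb was called, at -0.51 (adjusted p = 0.0433). From its single probes this tissue difference was -0.37, -0.48 and -0.23 (limma, adjusted p = 0.158, 0.0482 and 0.283). The strain difference in hindlimb of that table was -0.43 ± 0.16 (SE; adjusted p = 0.197). From the same probes it was -0.41, -0.70 and -0.19 (adjusted p = 0.333, 0.0516 and 0.597). The table difference in mdx hindlimb was -0.55 ± 0.28 (SE; adjusted p = 0.287).

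In untreated mdx mice the tissues lay on opposite sides of the reference for Mb at 3 weeks. The 3 probes read 1.74, 2.10 and 2.09 in diaphragm and 0.36, 0.39 and 0.49 in hindlimb at that age. BL10 arrays of 3 weeks showed no such gap, with averaged ratios of 0.871 in diaphragm and 1.06 in hindlimb, the latter from 2 probes because the third read -2.3. Only 1 array stands behind each of these values. The BL10 arrays of 3 weeks had 168 (diaphragm) and 225 (hindlimb) of 1200 probes at or below 0. Without the 3-week array of untreated mdx hindlimb the table difference of Mb in mdx hindlimb was -0.88 (adjusted p = 0.0498).

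The 3 probes of Mb were listed under the same RefSeq entry. Pearson's r between pairs of them was 0.71 to 0.90 over 17 or 18 untreated arrays and 0.58 to 0.81 over 16 L-arginine arrays. In mdx hindlimb of the L-arginine table the 3 probes had mean log2 ratios of -0.72 ± 0.43, -1.03 ± 0.20 and -0.41 ± 0.21 (SD, n = 4 each).

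Tnnt2 varied widely between arrays of a group, with SDs of its log2 ratio from 0.40 to 1.03. In mdx hindlimb of the L-arginine table its ratios were 3.67, 3.38, 1.36 and 1.13 at 3, 5, 9 and 12 weeks, and in BL10 hindlimb 2.40, 1.35, 0.56 and 0.96. Both groups were highest at 3 weeks. In diaphragm the ratios were 0.77, 3.14, 0.92 and 1.58 in mdx and 0.96, 0.54, 0.91 and 0.64 in BL10, so every BL10 array lay below 1 and the mdx arrays lay on both sides of it.

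Among untreated arrays, Tnnt2 was highest in BL10 hindlimb, with 1.76, 1.64, 1.07 and 2.58 at the 4 ages. In untreated mdx hindlimb the ratios at the first 3 ages were 1.40, 0.93 and 0.94, while Sample 1 read 1.08 and Sample 2 read 2.07. In untreated BL10 diaphragm they were 0.58, 0.81, 0.98 and 1.15. In untreated mdx diaphragm they were 1.30, 0.56 and 0.95, while Sample 1 read 1.50 and Sample 2 read 0.26. The gap between these last arrays, 2.53 on the log2 scale, was wider than any fitted difference of Tnnt2 between groups. Between single arrays, mdx and BL10 diaphragm at 5 weeks with L-arginine were 2.54 apart.

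No difference of Tnnt2 passed the test. Hindlimb was higher than diaphragm by 0.82 ± 0.32 (SE) untreated (limma, adjusted p = 0.526; 0% of genes called, 54 with an unadjusted p under 0.05) and by 0.62 ± 0.34 (SE) with L-arginine (adjusted p = 0.274). The strain difference with L-arginine was 0.89 ± 0.48 (SE; adjusted p = 0.998) in diaphragm and 0.86 ± 0.48 (SE; adjusted p = 0.341) in hindlimb. Untreated it was -0.19 ± 0.45 (SE) in diaphragm and -0.50 ± 0.45 (SE) in hindlimb. The table difference was 1.17 ± 0.49 (SE) larger in mdx than in BL10 (adjusted p = 0.509). It was 0.83 ± 0.48 and 0.77 ± 0.48 (SE) in mdx diaphragm and hindlimb, and -0.20 ± 0.50 and -0.55 ± 0.50 (SE) in BL10.

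The array of conflicting labels entered the differences of hindlimb in the L-arginine table, and leaving it out gained or lost no call among them. Without it the strain difference in hindlimb was 0.98 for Tnni1, 0.21 for Tpm3, -0.40 for Mb and 0.62 for Tnnt2. The tissue difference with L-arginine was -0.25 for Tnni1, 0.42 for Tpm3, -0.38 for Mb and 0.74 for Tnnt2. The table difference in BL10 hindlimb was 0.010 for Tnni1, -0.068 for Mb and -0.27 for Tnnt2, and the value of Tpm3 is given above. The largest of these moves was that of Tnnt2 in BL10 hindlimb, from -0.55.

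**Figure D3:**
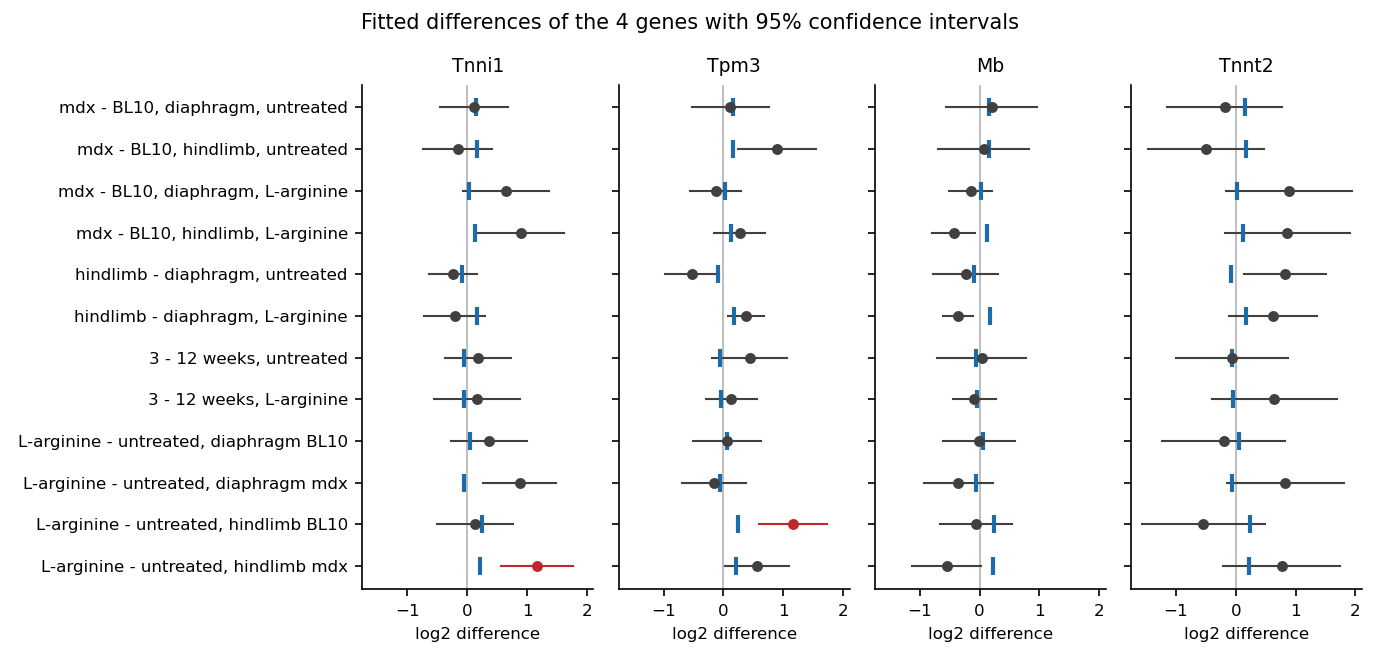
Log2 differences (horizontal axis) of the 4 genes in 12 comparisons (vertical axis), with 95% confidence intervals from limma. Red marks the differences that passed at an adjusted p under 0.05, which are Tnni1 in mdx hindlimb and Tpm3 in BL10 hindlimb between the tables, and blue ticks are medians of all genes tested.

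The age difference tested, 3 weeks minus 12 weeks, was 1 value per table, shared by its 4 groups. It was not called for any of the genes. Ages were not tested within a tissue or group, and other ages were not tested against 12 weeks. For Tnnt2 with L-arginine the groups differed in course from 3 to 12 weeks. In hindlimb the ratios were 3.67 and 1.13 in mdx and 2.40 and 0.96 in BL10. In diaphragm they were 0.77 and 1.58 in mdx and 0.96 and 0.64 in BL10. Between 3 and 12 weeks, Tnni1 differed by 0.18 ± 0.26 (SE) untreated and 0.16 ± 0.33 (SE) with L-arginine, Tpm3 by 0.44 ± 0.29 and 0.13 ± 0.20, and Mb by 0.033 ± 0.35 and -0.086 ± 0.16. Tnnt2, the developmental troponin T, differed by -0.062 ± 0.44 untreated and 0.64 ± 0.48 with L-arginine, with a 95% confidence interval from -0.41 to 1.69 for the latter. By limma 0% of genes were called in either table, with 51 and 29 genes at an unadjusted p under 0.05. The interaction of strain and tissue also called 0% of genes in both tables (31 and 42 at an unadjusted p under 0.05), its largest value among these genes being 0.78 ± 0.43 (SE) for Tpm3 untreated.

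The arrays of 12 weeks set RNA of that age against RNA of that age. The tissue and treatment of the reference are not given, so their ratios are a description and set no bound. Over these 10 arrays the log2 ratio ran from -0.23 to 1.10 for Tnni1, from -2.04 to 0.28 for Tpm3, from -0.62 to 0.34 for Mb and from -1.94 to 1.37 for Tnnt2. The lowest Tpm3 value was on the untreated BL10 hindlimb array with 128 probes at or below 0. The lowest Tnnt2 value was on Sample 2 of untreated mdx diaphragm. Over all groups, the order of the mean ratios rested on small steps. Of 28 steps between neighbouring groups in the order of 1 gene, 2 were larger than the larger SD of the pair. They were the step from mdx hindlimb to BL10 diaphragm for Tnni1 and that from BL10 to mdx hindlimb for Mb, all with L-arginine.

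Over the arrays, the genes did not share a course. In the L-arginine table Pearson's r was -0.78 for Tpm3 with Mb, -0.73 for Mb with Tnnt2 and 0.61 for Tpm3 with Tnnt2 over 16 arrays. In the untreated table the same pairs had 0.22, -0.24 and -0.59 over 18 arrays. The neighbouring genes Tnni1 and Tnnt2 had 0.34 and 0.16. These are descriptions, since arrays share references, groups and scaling.

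The genes most like each member over the 34 arrays (33 for Ankrd1 and 32 for Pla1a) were found among 617 genes, by Pearson's r of log2 ratios centred on the array's median and on the gene's mean in its table, as a description. Mb was most like Ckmt2, the mitochondrial creatine kinase of striated muscle, with r = 0.80 over both tables, 0.79 untreated and 0.84 with L-arginine. Oaz1, the ornithine decarboxylase antizyme, followed at 0.72, and the mitochondrial ATP synthase gene ATP6 at 0.68. Tnni1 was most like the tubulin gene Tuba1a (0.73), the kinase subunit gene Prkar1a (0.68) and Marcks (0.63). Tpm3 was most like Ankrd1 (0.67), Rab7 (0.67) and Pla1a (0.64), but its r with Ankrd1, a muscle stress gene, was 0.85 untreated and -0.022 with L-arginine. For Tnnt2 the highest values were 0.55 with Eif3d (0.32 untreated and 0.72 with L-arginine), 0.52 with Il6st (0.50 and 0.54) and 0.51 with Ywhaz. The last differed in sign between the tables, at -0.11 untreated and 0.87 with L-arginine.

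Other sarcomere genes were called beside Tpm3 in BL10 hindlimb. With the members, 24 genes of the slow, developmental, fast and general sarcomere lists were measured. In BL10 hindlimb the fast troponin I gene Tnni2 (1.17 ± 0.29 SE, adjusted p = 0.0205) and the fast light chain gene Mylpf (1.89 ± 0.55 SE, adjusted p = 0.0444) rose between the tables, as 2 of 11 fast-fibre genes. Among general sarcomere genes 1 of 6 rose, the M-band gene Myom1 (1.19 ± 0.32 SE, adjusted p = 0.0323). Slow-fibre genes gave 1 of 5, which is Tpm3, and developmental genes 0 of 2. In this comparison 4.91% of all genes were called. The medians were 0.49, 0.60, 0.13 and -0.27 in this order, against 0.24 for all genes.

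These calls were lost without the arrays that stood apart. On the log2 scale Mylpf averaged -1.41 ± 2.01 (SD, n = 4) in untreated BL10 hindlimb and reached -4.32, while Tnni2 (-1.10 ± 0.45) and Myom1 (-0.64 ± 0.81) had values on 3 arrays. Without the untreated arrays at 3 and 12 weeks the differences were 0.50 for Mylpf, 0.95 for Tnni2 and 0.90 for Myom1 (limma, adjusted p = 0.783, 0.337 and 0.405). None of the 24 sarcomere genes was then called, and 5 of 632 genes were.

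In mdx hindlimb, Tnni1 was the only sarcomere gene called, 1 of 5 slow-fibre genes, where 3.01% of all genes were called. Its fast counterpart Tnni2 had 0.18 ± 0.26 (SE). None of 11 fast-fibre genes (median 0.084), 6 general sarcomere genes (median 0.38) and 2 developmental genes (median 0.23) passed, against a median of 0.22 for all genes. In the other 14 comparisons none of the 24 genes passed limma's test, and 34 of 336 gene and comparison pairs, 10.1%, had an unadjusted p under 0.05. Over all genes that share was 10.6%.

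**Figure D4:**
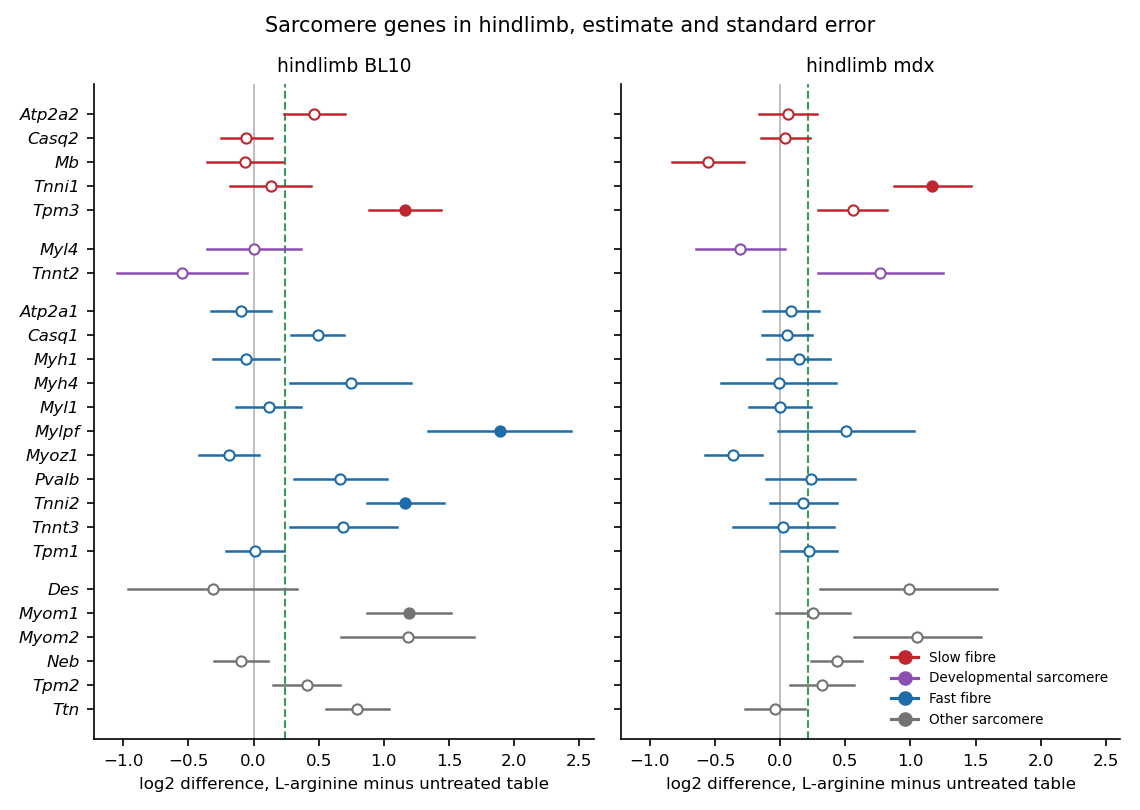
Log2 difference between the tables (horizontal axis, L-arginine minus untreated) for 24 sarcomere genes in BL10 and mdx hindlimb, with bars of 1 standard error. Filled points passed at an adjusted p under 0.05 and the dashed line is the median of all genes. Tpm3, Tnni2, Mylpf and Myom1 are filled in BL10, and Tnni1 alone in mdx.

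Markers of fibroblasts and matrix moved with the table in hindlimb of both strains. Of 9 listed fibroblast and matrix genes 4 were measured, and Fmod and Col1a2 rose in both strains. Averaged over the 4 genes, the log2 ratio of single arrays lay between -0.41 and 0.16 in untreated and between 0.59 and 1.29 in L-arginine BL10 hindlimb, and between -0.017 and 0.77 and between 1.03 and 1.91 in mdx. The calls in BL10 were lost without the untreated arrays at 3 and 12 weeks (limma, adjusted p = 0.0958 for Fmod and 0.513 for Col1a2). Those in mdx were lost with arrays scaled, where 0 genes were called, and with quantile normalisation, where the 2 genes called were lower.

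Of 9 macrophage genes 4 were measured. In mdx hindlimb all 4 were above 0 between the tables, with a median of 0.83 against 0.22 for all genes, 3 with an unadjusted p under 0.05 and none called. Their group means ran from 0.25 to 0.53 untreated and from 0.81 to 1.32 with L-arginine, and in BL10 hindlimb their median difference was -0.20. Between strains in hindlimb of the L-arginine table all 4 were higher in mdx, and 1 was called, the only gene called of 633 (0.158%). The largest of these 4 differences was that of Lyz2, at 1.97. Its means were 1.32 ± 0.34 in mdx and -0.65 ± 0.42 in BL10 (SD, n = 4 each). The myoblast gene Myod1 and Des, which mature fibres also express, differed by 0.73 ± 0.34 (SE) and 0.99 ± 0.68 (SE) in mdx hindlimb, and the endothelial gene Pecam1 by -0.49 ± 0.44 (SE). In BL10 hindlimb Pecam1 differed by 1.41, with an unadjusted p under 0.05, from means of -0.35 ± 0.74 (SD, n = 3) and 1.00 ± 1.66 (SD, n = 4). In mdx diaphragm all 4 fibroblast and matrix genes were above 0 between the tables (median 0.65), as were 3 of 4 macrophage genes (median 0.64). The median of all genes there was -0.059. In BL10 diaphragm the medians of these lists were 0.11 and 0.29, against 0.053 for all genes. None of these genes was called in diaphragm between the tables. The part of these cell types in the results for Tnni1 and Tpm3 was not tested. No listed gene of smooth muscle, blood or fat was measured. Muscle itself was represented by the sarcomere genes above, whose ratios give no level.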

How the data were processed

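The 2 value tables deposited by the authors give 1 linear ratio of the array's channels per probe. Not given in the sources used here are the scanner, the background correction and any scaling. The centring of the deposited ratio is therefore unknown. Column medians ran from 0.73 to 1.08 in the untreated and from 0.94 to 1.22 in the L-arginine table. Of 1200 probes per table, 812 had 1 gene symbol, 99 had several and 289 were unnamed here. Ratios of 0 or below have no logarithm and were left out, among them 3 of 272 values of the 4 genes. Probes measured on 75% of arrays or more were kept and averaged per gene as log2, with no further scaling. limma 3.58.1 (R 4.3.3) was fitted to all genes with group and age as terms, per table for strain, tissue and age, and over both tables for table differences, where all groups share 1 estimate of the spread. Each tissue difference is the mean over both strains, and each age difference is shared by all groups of a table. A call is a Benjamini-Hochberg adjusted p under 0.05 over all genes. The fit was tested on simulated data. Exact permutation tests were two-sided. Depth does not apply to arrays, whose number limits the precision. The members and the gene lists were chosen with earlier results of these data known. Sarcomere genes named passed the test in at least 1 comparison, markers named were the measured ones that passed or stood for a list of 1 or 2, and those named for likeness had the 3 highest correlations.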

Additional observations from a re-analysis of the deposited data

How the results depend on the processing

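Both calls kept their direction in every alternative, and each was lost in some. Tnni1 in mdx hindlimb between the tables passed in 39 of 50 alternatives, with adjusted p from 0.00073 to 0.225. It passed in 29 of 34 that left out 1 array at a time, many of them arrays of other groups, and in 10 of the other 16. It did not pass with arrays centred (1.06) or scaled (0.95), with quantile normalisation (0.99), with print-order trends removed (0.91), with low ratios floored at 0.1 (1.17) or with only the groups compared (1.18). Tpm3 in BL10 hindlimb passed in 41 of 52, with adjusted p from 9.68e-05 to 0.545. It passed in 32 of 34 with 1 array left out and in 9 of the other 18. It did not pass with arrays scaled (0.77), quantile normalisation (0.78), only probes with a value on every array (0.78), no 12-week arrays (0.81), only the groups compared (1.16), array weights (0.92), the exact permutation test (1.16, p = 0.0571), the probes of the cDNA entry alone (0.68), or without the untreated BL10 arrays at 3 and 12 weeks (0.59). With 1 array left out at a time, Tnni1 ran from 0.95 to 1.36 and Tpm3 from 0.81 to 1.57. The cause of these losses was not tested.

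Of 62 differences not called, 7 had an adjusted p under 0.05 in at least 1 alternative, in 11 of 2430 alternatives, and 3 exact permutation tests had an unadjusted p under 0.05. A sign turned in 5 cases, all of Tpm3. The age difference in untreated mice became -0.079 with probes measured on every array and with the cDNA-entry probes, and -0.35 with 1 of these alone. The strain difference in hindlimb with L-arginine became -0.27, and the interaction of strain and tissue in untreated mice -0.11, each with a single probe of that entry. Values nearer 0 than their SE were judged by size and given no direction.

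Counts over all genes varied as follows. The table difference called 31 genes in BL10 hindlimb (0 to 76 over the alternatives), 19 in mdx hindlimb (0 to 96), 4 in mdx diaphragm (0 to 31) and 0 in BL10 diaphragm (0 to 34), its difference between tissues 7 (0 to 43), and tissue with L-arginine 10 (1 to 45). Centring moved the split in BL10 hindlimb from 25 higher and 6 lower to 6 and 5, in mdx hindlimb from 16 and 3 to 6 and 4, and for tissue with L-arginine from 7 and 3 to 4 and 6. Single-probe fits were not run for table differences, because probes of the tables are not matched. The alternatives of the Tpm3 entries, of the untreated BL10 hindlimb arrays and of the pairing were chosen after seeing the data. The labels do not say that diaphragm and hindlimb came from the same mice. The deviations of arrays of 1 strain and age correlated at -0.044 to 0.32 over 9 untreated pairs and -0.19 to 0.095 over 8 L-arginine pairs, with 3 and 0 above 0.1. With these pairs as a replicate block, no difference between tissues of the 4 genes changed its side of the threshold (Mb with L-arginine -0.36, adjusted p = 0.178; the table difference of Tpm3 at 0.91, adjusted p = 0.127). The block left 1 gene called for tissue with L-arginine and 0 for the table difference between tissues.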
